A study of Homo sapiens with 66 samples.

Results

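Editing cluster regions (ECRs) are stretches of the genome around groups of adenosine-to-inosine (A-to-I) editing sites, extended by 1000 bases on each side. Of the 2875 ECRs counted in study 1, 852 overlapped the 3′ untranslated region (3′ UTR) of a protein-coding transcript on either strand, by at least 1 base. These 852 regions, here called 3′ UTR ECRs, were also counted in study 2, there among 2794 ECRs. The rule of overlap used position alone. The ECRs themselves were built by the authors around clusters of editing sites found in these data, so editing and read depth had a part in choosing them. They lay in 795 host genes, of which 55 held 2 or more, and 57 regions touched 3′ UTRs of more than 1 gene.

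RNA came from THP-1, a human monocytic leukemia line, made transgenic for Cas9 and nucleofected with guide RNAs (gRNAs). Study 1 used 1 STING-deficient clone and total RNA of day 3, 4, and 5 after nucleofection, with 3 replicates in each of 16 groups: CTRL (gRNA NC1), GFP, hnRNPC, ADAR, and ADAR+hnRNPC on each day, and CTRL with IFN-α (1000 U/ml for 24 h) on day 4. All cells of study 1 lacked STING, CTRL included. Study 2 used 1 WT clone on day 4, with 2 replicates in each of 9 groups: total RNA and digitonin-soluble (cytosolic enriched) RNA of CTRL, hnRNPC, ADAR, and ADAR+hnRNPC cells, and the insoluble, nuclear and mitochondrial enriched RNA of hnRNPC cells. The cells were a gRNA-treated population rather than a deletion clone, and the 2 studies were counted separately and are not set against each other by a test.

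ADAR is the enzyme that deaminates adenosine to inosine in double-stranded RNA, and inosine is read as guanosine in sequencing. In human transcripts its main substrates are Alu repeats, which when they lie nearby in opposite orientation can pair into long double-stranded stretches, and 3′ UTRs are a common place for such pairs because they are kept in the mature mRNA that reaches the cytosol. hnRNPC is a nuclear protein that binds uridine tracts, among them those of antisense Alu elements, and keeps such elements from being used as exons or as ends of transcripts. Unedited double-stranded RNA in the cytosol can be bound by sensors such as MDA5 and PKR and lead to the interferon response.

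The bases beside edited adenosines, read on the edited strand of GRCh37, departed from those beside adenosines in general. Over the 13550 retained sites in 3′ UTR ECRs with a sequenced base on both sides, G preceded 6.12% of the edited adenosines, against 21.2% of all adenosines in the same regions. T preceded 30.8% of the sites and 21.3% of all adenosines, and G followed 40.4% of the sites and 26.2% of all adenosines. In the ECRs outside 3′ UTRs the preceding G was at 4.86% and the following G at 40.9%, so both kinds of region had a like neighbor pattern. The difference between them was not tested.

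A pair of inverted repeats, meaning 2 arms of at least 200 bases each with at least 75% identity on opposite strands, was found in 520 of the 852 regions (61.0%), against 1030 of 1950 other ECRs (52.8%). In the 520 regions, 10297 of 11886 retained sites (86.6%) lay within an arm, and the arms made up 27.9% of the length. Each region was built with 1000 bases of flank on each side of its sites. The share of length is therefore not an expected share of sites. With an identity of at least 85% the share of regions with a pair was 8.57% and the share of sites in arms 23.3%, against 6.26% and 30.3% in the other ECRs. At 75% identity the share of sites in arms was 84.2% in the other ECRs, so the order of both sets in that share turned with the setting.

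The 3′ UTR ECRs had a median length of 2623 bases (range, 2008 to 13422), of which a median of 75.1% was annotated 3′ UTR. The overlap ranged from 1 base to the whole region, and 216 regions lay wholly in 3′ UTR. Coding sequence fell into 459 of them (53.9%) and into 658 of the 2023 other ECRs (32.5%). Their median GC content was 42.8% (43.3% in other ECRs). Chromosome 19, which is rich in zinc-finger genes, held 112 of them (13.1%), and 8.30% of the other ECRs. Reads per kilobase were higher than elsewhere: the median in CTRL cells of day 5 was 4.32 CPM (reads scaled to the gene-assigned total of the library) per kb against 1.55 CPM per kb.

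Retained editing sites, meaning sites that passed the filters given with the processing, numbered 13584 in 584 of the 852 regions, with a median of 14 and a maximum of 330 per region. Of these sites 9529 (70.1%) lay inside a 3′ UTR on its own strand, and 95.9% lay on the strand of the host gene. Unless stated, editing values and tests below used only sites without an empty value in any library of their study. That left 9588 of the 13584 sites in study 1 and 13182 of 14963 in study 2. The other regions with sites numbered 996, with a median of 8 sites. A region with few bases of 3′ UTR can thus hold sites that are not in the UTR: in the ECR at PCLAF (a partner of the replication clamp PCNA), 698 of 7310 bases were 3′ UTR.

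The targeted genes and the depth set the frame for these values. HNRNPC mRNA on day 5 was 832 ± 31.5 CPM in CTRL cells (mean ± SD, n = 3) and 317 ± 5.77 CPM in hnRNPC cells. ADAR mRNA in ADAR and CTRL cells was 370 ± 19.4 and 424 ± 10.7 CPM on day 3, 368 ± 18.2 and 404 ± 10.6 CPM on day 4, and 386 ± 12 and 394 ± 26.4 CPM on day 5. The ADAR libraries lay below those of CTRL on days 3 and 4 and overlapped with them on day 5. The log2 fold changes of −0.19, −0.13, and −0.03 did not pass the test (edgeR quasi-likelihood test, adjusted p = 0.997, 0.506, and 0.853). In study 2, ADAR mRNA in total RNA was 864 ± 8.02 CPM in CTRL and 506 ± 82.1 CPM in ADAR cells (n = 2). Gene-assigned reads per library ranged from 95107690 to 152829008 in study 1 and from 49666958 to 73873756 in study 2, and 3′ UTR ECRs held 45.2 to 50.1% and 42.8 to 50.8% of all ECR reads. At retained sites of these regions without an empty value, the libraries had 193823 to 475803 reads in study 1 and 428388 to 661923 in study 2. Of 9 monocytic marker genes 8 reached 1 CPM, as did 1 of 3 B cell markers, 0 of 3 T cell, 0 of 4 epithelial, and 0 of 3 erythroid markers. Fewer cells with a transcript and less of it per cell cannot be told apart in such bulk RNA.

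Editing was summed over the retained sites without an empty value in the 3′ UTR ECRs of study 1. It was below 6% in every ADAR library, and higher with IFN-α than in any CTRL library. In CTRL cells of day 3, edited reads made up 13.2, 13.1, and 14.6% in the 3 libraries. The CTRL libraries of day 4 had 13.5, 13.5, and 13.3%, and those of day 5 had 13.3, 13.6, and 13.6%. ADAR cells had 5.45, 5.53, and 5.63% on day 3. Libraries of day 4 had 5.16, 5.31, and 5.24%, and libraries of day 5 had 5.29, 5.39, and 5.44%. Every ADAR library lay below every CTRL library. The 95% Wilson interval of the CTRL library with the first replicate number on day 5 was 13.17 to 13.38%, which covers counting error only.

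ADAR+hnRNPC cells began near the ADAR cells and moved away from them by day 5. Their libraries had 6.11, 6.15, and 6.69% on day 3. Libraries of day 4 had 6.28, 6.28, and 6.34%, and libraries of day 5 had 8.37, 8.98, and 9.37%. The day 5 libraries lay above all ADAR libraries and below all CTRL libraries. ADAR mRNA, at 355 ± 11.9 CPM on day 3 and 455 ± 33.1 CPM on day 4, was 1322 ± 174 CPM in ADAR+hnRNPC cells of day 5, and its part in the result was not tested. hnRNPC cells had 13.6 to 14.2% on day 3, 13.8 to 15.2% on day 4, and 13.5 to 14.9% on day 5, overlapping with CTRL cells on days 3 and 5 but not on day 4.

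With IFN-α, editing over the 3′ UTR ECRs was 24.5, 26.4, and 29.6% (mean 26.9% ± 2.58, n = 3), above all 3 CTRL libraries of day 4 (13.4% ± 0.146). In the other ECRs the same groups had 24.0% ± 2.55 and 17.3% ± 0.416. A site could enter these sums through the IFN-α group itself. Over sites that passed in GFP libraries, the 3′ UTR ECRs had 20.7% ± 0.204 in CTRL cells and 36.3% ± 3.32 with IFN-α, and the other ECRs 22.0% ± 0.541 and 29.7% ± 3.11. Over every deposited site the CTRL means were 4.71% and 4.59%, so the order of both sets in CTRL cells depended on the sites, and those with IFN-α were 10.01% and 6.79%. The difference between both sets was not tested for the sums. ADAR mRNA with IFN-α was 1236 ± 165 CPM against 404 ± 10.6 CPM in CTRL cells of day 4, and its part in the result was not tested.

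Site selection bears on the level of these values. A site was retained where it was edited in every library of at least 1 group, which favors sites with editing. When only sites that passed in GFP libraries were used (chosen after seeing the data), the CTRL mean of day 5 was 20.7% and the difference of ADAR from CTRL cells −12.1 percentage points. With every deposited site, the CTRL mean was 4.73% and the difference −2.94 points. The direction was the same in each case.

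Per region, ADAR gRNA lowered editing in most of the 418 3′ UTR ECRs with at least 50 reads at retained sites in every library. A region was called where the difference was at least 5 percentage points and the adjusted p of a quasi-binomial logistic model was 0.05 or below (Benjamini-Hochberg over all tested ECRs). Lower editing than in CTRL cells was called in 358 regions on day 3 (82.9% of all tested ECRs were called lower), 365 on day 4 (83.2%), and 357 on day 5 (83.8%), and higher editing in none (0.0% on each day). The median difference on day 5 was −7.79 points. All 418 differences on day 5 were below 0, also those under the threshold. Among sites that passed in GFP libraries, 295 regions could be tested, with 279, 286, and 279 called lower (92.4, 93.6, and 93.6% of all tested ECRs) and 1 called higher on day 4 (0.201%). With every deposited site, 62, 64, and 62 were called lower. The CTRL mean of day 5 over those sites was 4.73%, below the threshold of 5 points. The share of all ECRs called with those sites was not computed, so these counts are not a result about 3′ UTR ECRs.

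The level differed greatly between regions. In CTRL cells of day 5 the median region had 13.5% editing, with a 10th to 90th percentile range of 7.67 to 21.9% and a maximum of 61.7%, and in ADAR cells the median was 5.2% (range, 2.07 to 11.2%). GFP cells had a median of 13.4% on day 5. GFP against CTRL gave 0 called regions on any day by the quasi-binomial model (background 0.0%) and by limma on the empirical logit, and 16, 12, and 26 regions had an unadjusted p of 0.05 or below on days 3, 4, and 5.

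**Figure D1:**
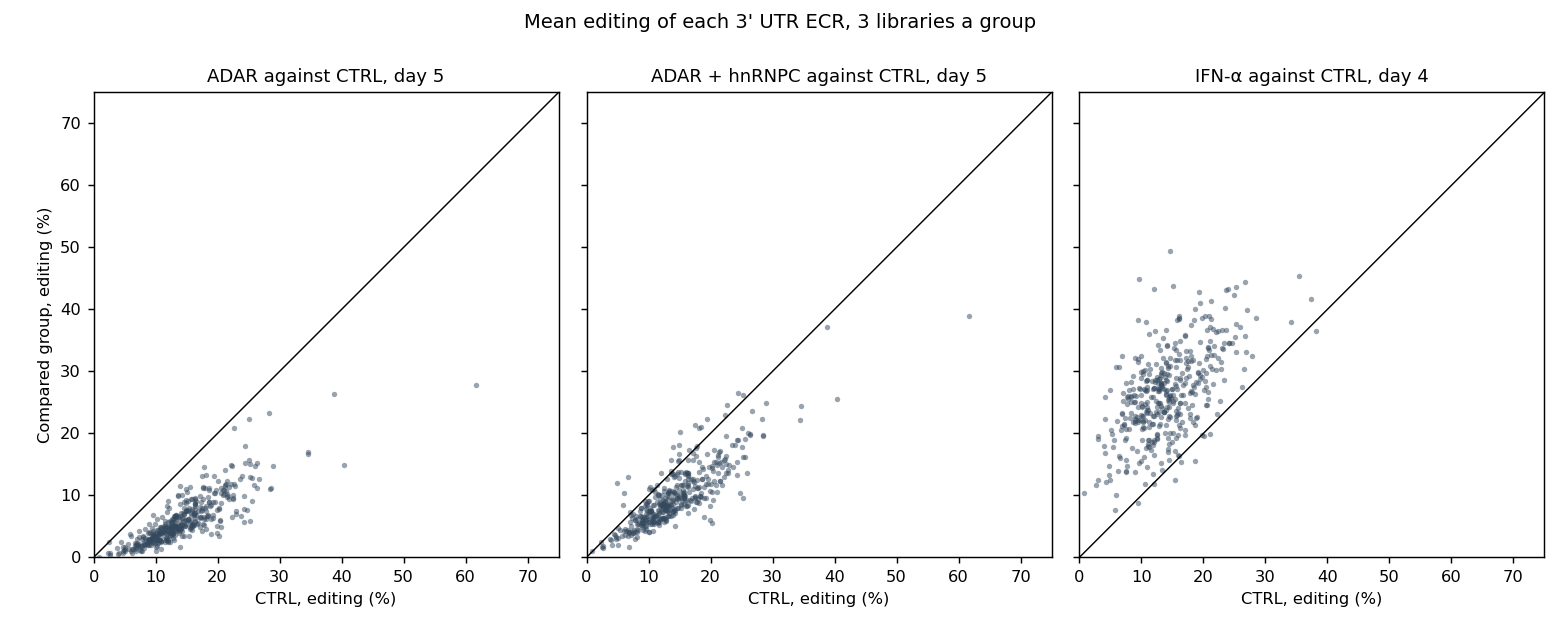
Editing of single 3′ UTR ECRs (percent of reads at retained sites, mean of 3 replicates), with CTRL cells on the x axis and the compared group on the y axis, and the line of equal values. The points of ADAR cells lie below the line, those of IFN-α above it for 409 of 418 regions, and those of ADAR+hnRNPC cells of day 5 mostly between the ADAR cells and the line.

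The regions with the most reads at editing sites were long. In the ECR at CYP20A1, a cytochrome P450 family member (chr2:204161106-204171199, 330 retained sites), editing on day 5 was 13.8, 14.9, and 13.9% in CTRL, 4.17, 4.12, and 4.5% in ADAR, and 5.01, 5.15, and 5.02% in ADAR+hnRNPC cells. ADAR cells lay 9.96 points below CTRL cells (quasi-binomial model, adjusted p = 5.28e-16). In this region ADAR+hnRNPC cells stayed near ADAR cells.

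The ECR at SPN, the leukocyte surface protein sialophorin or CD43 (chr16:29677835-29682792, 164 sites) differed from that: 10.6, 9.78, and 11% in CTRL, 2.23, 2.75, and 2.28% in ADAR, and 6.41, 7.58, and 9.06% in ADAR+hnRNPC cells. The difference from CTRL was −8.11 points in ADAR (adjusted p = 1.17e-12) and −2.85 points in ADAR+hnRNPC cells (adjusted p = 0.0022, quasi-binomial model). In AP1S3, a subunit of a clathrin adaptor, the ADAR+hnRNPC libraries (7.62, 8.89, and 10.9%) overlapped those of CTRL (10.1, 10.1, and 9.73%; difference −0.92 points, adjusted p = 0.292 in the quasi-binomial model), while ADAR cells had 3.43, 3.59, and 3.06%. The other regions with the most reads, at PCLAF, NDUFS1 (a complex I subunit), VHL (a tumor suppressor that targets HIF), GNL3L (a nucleolar GTPase), and CLPB (a mitochondrial chaperone), were called lower in ADAR cells except VHL. VHL had 6.37, 7.06, and 7.30% in CTRL and 2.18, 1.71, and 2.5% in ADAR cells, and the difference of −4.77 points stayed under the threshold of size (quasi-binomial adjusted p = 4.29e-11).

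The 8 largest drops in ADAR cells of day 5 were between 17.6 and 34.0 points. CWF19L1, a splicing-related factor (chr10:101991259-101993899) ranged from 59.5 to 65.6% in the 3 CTRL libraries, with 24.9, 25.7, and 32.9% in ADAR, and 41.0, 37.6, and 38% in ADAR+hnRNPC cells of day 5. This value rests on 1 site, since the other retained sites of the region had empty values. The groups did not overlap, and the ADAR difference was −34.0 points (quasi-binomial adjusted p = 1.77e-12). In DNASE1, a secreted DNA endonuclease (chr16:3708801-3711831), the levels were 36.4, 44.6, and 40.4% in CTRL and 11.2, 17.6, and 15.8% in ADAR cells, 26.5 points lower by the group values (adjusted p = 8.22e-06 in the same model). TIAL1, an RNA-binding protein of stress granules, had 19.7, 35.2, and 20.9% in CTRL, with the library of the second replicate well above the others, and 5.23, 7.59, and 4.61% in ADAR cells. IRAK1BP1, MFSD2A, MPV17, SMU1, and DHDDS completed the 8, at −17.9, −18.2, −17.7, −17.6, and −17.6 points.

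With hnRNPC also targeted, editing was lower than in CTRL cells in most regions on days 3 and 4 and in fewer on day 5. ADAR+hnRNPC cells were called lower than CTRL cells in 312 of the 418 regions on day 3 (background 70.3% lower) and 308 on day 4 (70.8%). On day 5, 154 were called lower (35.6%) and 2 higher (0.63%), and the median difference was −4.37 points. Against ADAR cells of day 5, editing was higher in 93 regions (26.4%) and lower in none (0.0%), with a median difference of 3.48 points. The comparisons with CTRL and with ADAR cells share the ADAR+hnRNPC libraries. Among sites that passed in GFP libraries 188 of 295 regions were lower than CTRL (58.2%) and 141 higher than ADAR cells (42.6%) on day 5.

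hnRNPC gRNA alone changed editing in few of these regions. Higher editing than in CTRL cells was called in 3 regions on day 3 (background 1.13%), 19 on day 4 (6.05%), and 21 on day 5 (8.94%), and lower editing in 0, 0, and 2 (0.126, 0.126, and 0.63%). The share of 3′ UTR ECRs called higher on day 5, 5.02%, was below the background, and in the other ECRs 50 of 376 (13.3%) were called higher. Without hnRNPC replicate 1 of day 5 the number higher was 10, and without replicate 3 of day 4 it was 9 for that day. Of the 13 tested regions in genes known for edited or paired 3′ UTRs, 1 was called higher on day 5, a region of MDM4 (a partner of MDM2; chr1:204502641-204506325). It had 28.2, 34.3, and 24.1% in hnRNPC and 11.4, 20.4, and 13.4% in CTRL cells (13.3 points, quasi-binomial adjusted p = 0.0169). In MAVS (the adaptor of RIG-I and MDA5; chr20:3847102-3855106), with 20.4, 19.2, and 16.8% in hnRNPC and 14.7, 15.4, and 15.8% in CTRL cells, the difference of 3.79 points was under the threshold of size, so the region was not called.

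IFN-α raised editing in 350 of 418 3′ UTR ECRs (background 64.5%) and lowered it in none (0.0%). The median difference was 12.1 points, and the median region reached 26.2% (10th to 90th percentile, 17.6 to 35.7%). In the other ECRs, 162 of 376 (43.1%) were called higher, with a median of 5.09 points. The share in 3′ UTR ECRs was 83.7%, and the difference between both sets was not tested. Among sites that passed in GFP libraries, 253 of 295 regions were higher (72.7%).

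The largest rise was in DTD2, a D-aminoacyl-tRNA deacylase (chr14:31915456-31917805), from 7.59, 8.44, and 12.9% in CTRL cells of day 4 to 45.9, 41.3, and 47.4% with IFN-α, a difference of 34.8 points (quasi-binomial adjusted p = 2.41e-12). SLC26A2, a sulfate transporter (chr5:149362214-149364414), went from 16, 12.2, and 7.73% to 44, 44.3, and 41.5% (31.6 points, adjusted p = 4.11e-11). ERCC6L2, a DNA repair helicase (chr9:98777017-98779073), went from 8.66, 11, and 8.94% to 36.8, 44.9, and 33.3% (30.2 points, adjusted p = 4.21e-10). In all 3 the groups were far apart. Sites of these and the following regions could be retained through the IFN-α group itself, which favors higher values with IFN-α. RNASEH2B (a subunit of the nuclease that removes RNA from DNA hybrids), DTWD2, DENND6A, and HPSE (heparanase) rose by 26.0, 28.1, 24.4, and 23.9 points. GPALPP1 had 29.6, 39.2, and 79.7% with IFN-α, so that its rise of 27.5 points leaned on the third library.

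Editing also moved with IFN-α and with ADAR gRNA in genes known for edited or paired 3′ UTRs. The list held 19 ECRs of 16 genes, of which 13 ECRs could be tested for editing. Sites of these regions could be retained through the IFN-α group itself, which favors higher values with IFN-α. With IFN-α 12 of the 13 were called higher, beside 64.5% of all ECRs and 83.7% of 3′ UTR ECRs (median difference 16.5 points; 12.1 over all 3′ UTR ECRs). With ADAR gRNA on day 5, 9 were called lower, beside 83.8% of all ECRs (median −8.44 points; −7.79 over all 3′ UTR ECRs). CTSS, the lysosomal protease cathepsin S (chr1:150702612-150706332) went from 4.49, 3.75, and 4.13% to 25.5, 24.8, and 27.4% with IFN-α (21.5 points, adjusted p = 4.71e-19 in the quasi-binomial model). EIF2AK2, which encodes the double-stranded RNA-activated kinase PKR (chr2:37326658-37332645) went from 11.6, 11.1, and 11.6% to 29.4, 30.1, and 31.9% (18.9 points, adjusted p = 1.4e-16). PSMB2, a proteasome subunit, went from 17.6, 14.9, and 15.8% to 36.0, 39.3, and 40.7%, and NUP43, a nuclear pore protein, from 15.8, 14.9, and 14.9% to 31.4, 33.9, and 35.9%.

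MAVS and XIAP (a caspase inhibitor) rose by 9.84 and 11.8 points, and MDM2, a ubiquitin ligase for p53, by 8.70 points from a low level (2.96, 2.5, and 2.53% to 7.09, 12.7, and 15.4%). AHR (a ligand-activated transcription factor) and F11R (a junctional adhesion molecule) rose by 18.4 and 16.5 points. The exception was the MDM4 region with the fewest 3′ UTR bases (chr1:204502641-204506325, 124 of 3685 bases). It had 27.4, 19.5, and 28.9% in CTRL and 28.1, 34.5, and 37.0% with IFN-α, and was not called (6.50 points, quasi-binomial adjusted p = 0.21). The other 2 ECRs of MDM4 rose by 15.9 and 9.38 points.

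On day 5, 8 of the 13 were lower in ADAR+hnRNPC than in CTRL cells, beside 35.6% of all ECRs. MAVS was not among them: it had 13.7, 14.1, and 13.6% against 14.7, 15.4, and 15.8% in CTRL cells, a difference of −1.53 points (quasi-binomial adjusted p = 0.0759), while ADAR cells had 6.87, 7.83, and 8.37%. XIAP (chrX:123041978-123048295) stayed lower, with 8.80, 9.22, and 8.84% against 14.8, 14.1, and 14.3%.

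The number of reads over the regions, as distinct from their editing, changed little with ADAR gRNA. Of the 852 regions 814 passed the filter on low counts in study 1. A region was called where the log2 fold change was at least 1 in size and the adjusted p of edgeR's quasi-likelihood test 0.05 or below. The ECRs were built around sites found over all groups. A region could thus be kept through a group where its reads are high, which favors rises in that group. In ADAR against CTRL cells, 0 regions were called on days 3, 4, and 5 (background 0.0% higher and 0.0% lower on day 3, 0.0396% and 0.0396% on day 4, 0.0791% and 0.0% on day 5), by edgeR, DESeq2, and limma-voom alike. At an unadjusted p of 0.05 or below there were 28, 83, and 204 regions, and on day 5 the median log2 fold change was −0.10. GFP against CTRL cells also gave 0 calls (0.0% and 0.0%, 0.0% and 0.0396%, 0.0% and 0.0%), with 38, 54, and 189 at an unadjusted p of 0.05 or below. Its day 5 median was also −0.10. Both comparisons share the CTRL libraries.

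hnRNPC gRNA moved the reads of some regions up and, later, of more regions down. The rising regions numbered 16 on day 3 (background 4.79%), 18 on day 4 (5.62%), and 17 on day 5 (4.98%). The falling regions numbered 6 (0.435%), 14 (1.27%), and 40 (4.31%). The share called higher was 1.97, 2.21, and 2.09% on the 3 days, below the background, and in the other ECRs it was 6.13, 7.23, and 6.36%. The difference between both sets was not tested. Scaled to ECR totals in place of gene totals, 9 rose and 10 fell on day 3, while 20 rose and 32 fell on day 5.

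In ADAR+hnRNPC against CTRL cells, rises were called in 10 (3.16%), 24 (5.5%), and 40 regions (6.33%) in the order of the days. Falls were called in 7 (0.593%), 16 (1.62%), and 91 (10.4%). The split of day 5 depended on the scaling. The median of all ECRs was −0.22 on the log2 scale with gene totals, and −0.26 for 3′ UTR ECRs. With ECR totals, where the median of all ECRs was −0.02, 55 were higher and 43 lower. With gene totals but without TMM factors, 48 were higher and 56 lower. Against ADAR cells of the same day, rises were called in 10 (2.93%), 25 (6.65%), and 40 (6.84%) and falls in 7 (0.593%), 14 (1.31%), and 52 (6.69%). The change of the effect from day 3 to day 5, a contrast added after seeing the data, was upward in 22 regions (2.33%) and downward in 47 (6.05%). With IFN-α, 8 were higher (0.752%) and 0 lower (0.119%).

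**Figure D2:**
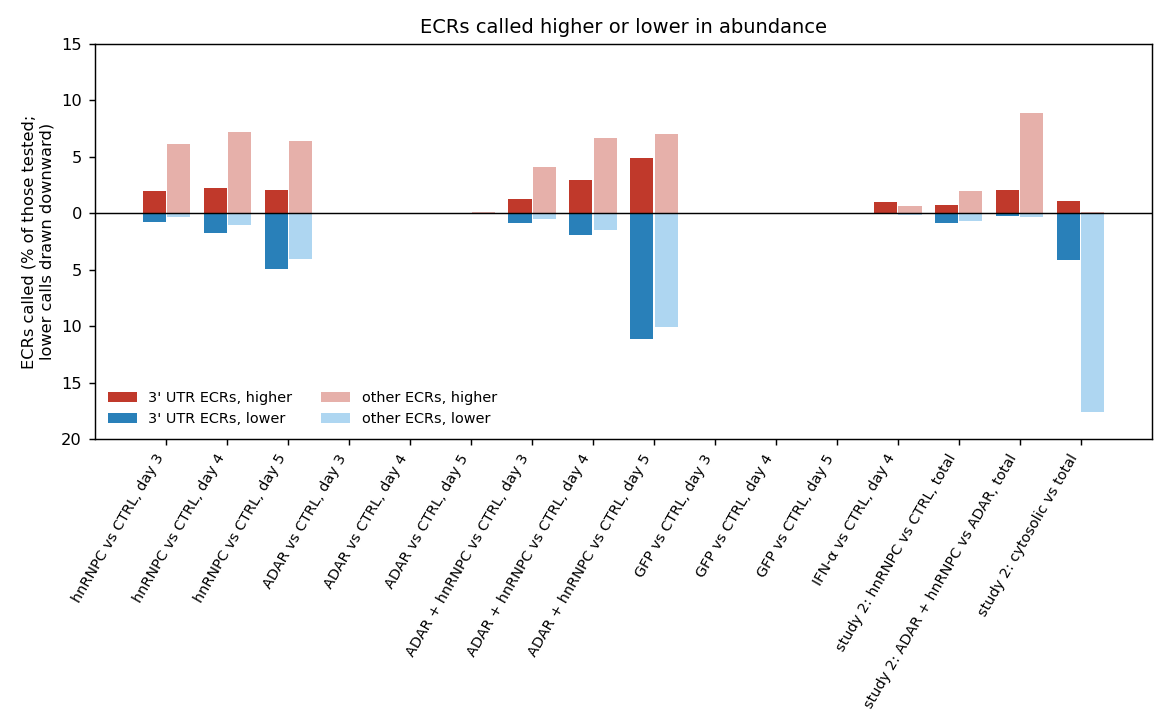
Share of tested ECRs called higher (bars upward) and lower (bars downward) in read abundance (percent, y axis), for 3′ UTR ECRs and other ECRs. Comparisons with CTRL cells of the same day are from study 1. The other study gives hnRNPC against CTRL and ADAR+hnRNPC against ADAR cells in total RNA, and cytosolic against total RNA. Of the 814 3′ UTR ECRs tested in study 1, ADAR and GFP gRNA gave none called. On day 5 hnRNPC gRNA gave 17 higher and 40 lower, and ADAR+hnRNPC gRNA 40 higher and 91 lower.

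Some of the regions that rose with hnRNPC gRNA lay in zinc-finger genes. Such regions could be kept as ECRs through the groups where their reads are high. ZNF431 (chr19:21350746-21352815) had 0.633, 0.644, and 0.619 CPM in CTRL and 3.73, 4.59, and 3.72 CPM in hnRNPC cells of day 5 (log2 fold change 2.66 ± 0.21 SE, edgeR adjusted p = 1.54e-13), while its host gene changed by 0.47 on the log2 scale. Only 33 of its 2070 bases were 3′ UTR. ZNF773 (chr19:58029299-58031352) had 0.797, 1.08, and 1.39 CPM against 4.74, 4.80, and 4.77 CPM (2.12 ± 0.23, edgeR adjusted p = 3.27e-10), and 474 of its 2054 bases were 3′ UTR. ZNF726 and ZNF382 rose by 1.90 and 1.73 on the log2 scale, ZNF382 together with its gene (1.90). The regions at ZNF431, ZNF773, and ZNF382 held no retained editing site of study 1. Of 84 tested regions in genes of the zinc-finger family, which are mostly DNA-binding repressors, 6 were higher and 1 lower, beside 4.98% higher and 4.31% lower over all ECRs. The median of this list was 0.14 on the log2 scale, against −0.15 over all 3′ UTR ECRs and −0.08 over all ECRs.

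The falling zinc-finger region was that of ZNF738 (chr19:21568529-21570655, wholly 3′ UTR). It had 7.33, 8.18, and 7.99 CPM in CTRL and 1.66, 1.72, and 2.85 CPM in hnRNPC cells (−1.92 ± 0.17, edgeR adjusted p = 2.17e-12), while the ZNF738 gene as a whole changed by 0.95 on the log2 scale. In ADAR+hnRNPC cells it had 1.91, 1.18, and 2.18 CPM. It held no retained editing site of study 1. The region and its gene thus moved in opposite directions.

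Regions in mitochondrial genes moved in both directions. MRPS23, a protein of the small mitochondrial ribosomal subunit (chr17:55912394-55916615, wholly 3′ UTR, 29 retained sites), had 8.18, 8.28, and 7.08 CPM in CTRL and 26.8, 25.4, and 24.2 CPM in hnRNPC cells (1.70 ± 0.09, edgeR adjusted p = 1e-18), with the gene at −0.24 on the log2 scale. ADAR cells had 7.81, 7.66, and 7.53 CPM. MRPL42, of the large subunit (chr12:93905097-93907177), fell from 3.28, 4.24, and 3.15 to 0.881, 0.828, and 0.883 CPM (−2.04 ± 0.17, edgeR adjusted p = 1.26e-12), with its gene at −0.55. Of 27 regions in mitochondrial genes, 1 was higher (MRPS23) and 3 were lower (both ECRs of MRPL42 and that of MRPS21), beside 4.98% higher and 4.31% lower over all ECRs.

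Other called falls were those at GMPS, SLC33A1, and SIGLEC6. GMPS, the GMP synthetase of purine synthesis (chr3:155658901-155661965), had 20.8, 22.6, and 23.1 CPM in CTRL and 4.09, 4.47, and 5.26 CPM in hnRNPC cells (−2.27 ± 0.11, edgeR adjusted p = 4.1e-19), with its gene at −1.11. SLC33A1, the acetyl-CoA transporter of the endoplasmic reticulum (chr3:155541779-155544959), had 12, 13.5, and 11.7 against 2.99, 3.72, and 3.81 CPM (−1.83 ± 0.13), with its gene at −1.04. SIGLEC6, a sialic acid-binding receptor, fell from 1.88, 2.31, and 3.60 to 0.664, 0.574, and 0.911 CPM (−1.86 ± 0.24). The SIGLEC6 region held no retained editing site of study 1.

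A ratio of the reads of the region to the exonic reads of its gene set these apart. It was tested with limma on the log2 ratio in 794 regions. For a region that lies in exons, its own reads are part of the denominator. On day 3 of hnRNPC gRNA, 15 ratios were higher (background 4.38%) and 2 lower (0.177%), on day 4 14 (5.09%) and 4 (0.663%), and on day 5 14 (4.87%) and 5 (1.59%). In ADAR against CTRL cells there were 0 on each day (0.0%), with 56, 87, and 122 at an unadjusted p of 0.05 or below in limma. With IFN-α there were 0 higher (0.0442%) and 0 lower (0.0442%), with 222 at that unadjusted p. In ADAR+hnRNPC cells of day 5, 11 were higher (4.2%) and 15 lower (4.38%).

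Besides MRPS23, ZNF431, and ZNF773, the higher ratios on day 5 of hnRNPC gRNA included ORAI2, SF3B3, NFS1, KDM5B, and GPAA1. ORAI2, a subunit of store-operated calcium channels (chr7:102094437-102096519, wholly 3′ UTR), had 1.06, 0.970, and 0.857 CPM in CTRL and 3.09, 3.20, and 2.97 CPM in hnRNPC cells (1.68 ± 0.20, edgeR adjusted p = 6.07e-09), with its gene at −0.09. In ADAR+hnRNPC cells it had 1.18, 1.39, and 1.73 CPM, so the rise there was smaller. SF3B3, a spliceosome subunit (chr16:70609873-70611889), had 1.66, 1.81, and 2.21 against 5.15, 5.12, and 6.56 CPM (1.57 ± 0.16), with its gene at −0.17. NFS1, a cysteine desulfurase, had 1.63, 1.55, and 1.57 against 4.08, 4.6, and 3.91 CPM while its gene stood at −0.87. Of the SF3B3 region 1699 of 2017 bases were 3′ UTR. The share was small at NFS1 (155 of 4121 bases), GPAA1 (87 of 2096), and KDM5B (491 of 2084), so rises there need not lie in the 3′ UTR. The regions at ORAI2, SF3B3, and KDM5B held no retained editing site of study 1. Lower ratios were those of ZNF738, MRPL42, SH3BP2, GMPS, and PDE7A.

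Over all called regions with a tested gene, 5 of the 17 that were higher with hnRNPC gRNA on day 5 had a gene that was also called higher, and 12 of 38 lower regions had a gene called lower. In ADAR+hnRNPC cells of day 5, 27 of 39 higher regions and 39 of 88 lower regions moved with their gene. With IFN-α all 7 did. As regions and genes can share reads, these counts are a description.

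The largest rises in ADAR+hnRNPC cells of day 5 by log2 fold change were, in this order, at RIGI, SP110, RNF213, SIGLEC11, GBP4, EIF2AK2, and APOL6, of which all but RNF213 and SIGLEC11 were on the list of double-stranded RNA sensing and interferon response. The region at RIGI, the RNA helicase RIG-I (chr9:32455302-32457488), had 4.84, 4.41, and 4.78 CPM in CTRL, 3.92, 3.88, and 4.42 in hnRNPC, 6.24, 5.18, and 5.50 in ADAR, and 163, 186, and 268 CPM in ADAR+hnRNPC cells (5.46 ± 0.17 against CTRL, edgeR adjusted p = 1.04e-25). This region overlapped the 3′ UTR of an unnamed gene by more bases than that of RIGI, and is named and listed here for RIGI. SP110, an interferon-induced nuclear body protein (chr2:231030883-231033789), had 1.63, 1.90, and 2.22 CPM in CTRL and 41.4, 45.1, and 63.4 CPM (4.70 ± 0.26, edgeR adjusted p = 5.17e-18). EIF2AK2 had 36.0, 41.0, and 42.7 CPM in CTRL and 308, 340, and 359 CPM (3.07 ± 0.12, edgeR adjusted p = 2.47e-22). In each, the ADAR+hnRNPC libraries lay far above the 12 libraries of the other gRNAs of that day, GFP included. These and the following regions could be kept as ECRs through a group where their reads are high, which favors such rises.

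RNF213, a ubiquitin ligase of antiviral defense (chr17:78293183-78295775), rose by 4.11 ± 0.14 on the log2 scale in ADAR+hnRNPC cells. It also rose with hnRNPC gRNA alone, from 4.45, 5.08, and 5.67 to 10.6, 11.8, and 12.1 CPM (1.18 ± 0.13, edgeR adjusted p = 5.58e-10), while the gene stood at 0.44 there. GBP4, an interferon-induced GTPase (chr1:89648439-89650560), had 3.68, 3.77, and 3.48 CPM in CTRL and 26.7, 30.1, and 41.2 CPM in ADAR+hnRNPC cells (3.16 ± 0.14). APOL6 (chr22:36054840-36058400), of the apolipoprotein L family, had 43.4, 48.9, and 84.7 against 369, 431, and 532 CPM (2.91 ± 0.16). One CTRL library of APOL6 was thus well above the other 2, yet far below the ADAR+hnRNPC libraries.

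SIGLEC11 (chr19:50451416-50454068), a sialic acid-binding receptor of macrophages, rose with both perturbations. It had 0.570, 0.644, and 0.768 CPM in CTRL, 2.76, 2.86, and 2.10 in hnRNPC, and 6.29, 5.90, and 5.68 CPM in ADAR+hnRNPC cells (3.17 ± 0.36 against CTRL, edgeR adjusted p = 6.6e-10). Its gene changed by 2.28 and 3.42. Among the falls in ADAR+hnRNPC cells, GOLGA8N, a golgin family member (chr15:32897092-32899348), had 62.1, 63.5, and 58.6 CPM in CTRL, 35.9, 38.6, and 34.2 in hnRNPC, and 19.8, 17.0, and 16.1 CPM in ADAR+hnRNPC cells (−1.80 ± 0.08). ZNF738, PDE7A (a cAMP phosphodiesterase), MRPL42, and GMPS fell by 2.16, 1.92, 1.88, and 1.87 on the log2 scale.

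IFN-α raised 8 regions, which could be kept as ECRs through the IFN-α group or another group where their reads are high. SP110 went from 1.48, 1.44, and 1.64 CPM in CTRL cells of day 4 to 22.0, 25.7, and 26.7 CPM (4.03 ± 0.26, edgeR adjusted p = 1.98e-15). RIGI went from 4.55, 4.45, and 4.13 to 26.6, 32.3, and 38.2 CPM (2.89 ± 0.15), and EIF2AK2 from 32.1, 38.4, and 35.6 to 168, 209, and 249 CPM (2.56 ± 0.12). RNF213, GBP4, APOL1, TOR1B (a torsin ATPase), and APOL6 rose by 2.38, 1.55, 1.45, 1.35, and 1.31 on the log2 scale. The TOR1B region held no retained editing site of study 1. Of the 13 regions on the list of double-stranded RNA sensing and interferon response, 6 were called higher with IFN-α and 6 in ADAR+hnRNPC cells of day 5, namely APOL1, APOL6, EIF2AK2, GBP4, RIGI, and SP110 in both, beside 0.752% and 6.33% of all ECRs. Both counts stand beside list medians of 0.46 and 0.33, with −0.04 and −0.26 over all 3′ UTR ECRs.

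**Figure D3:**
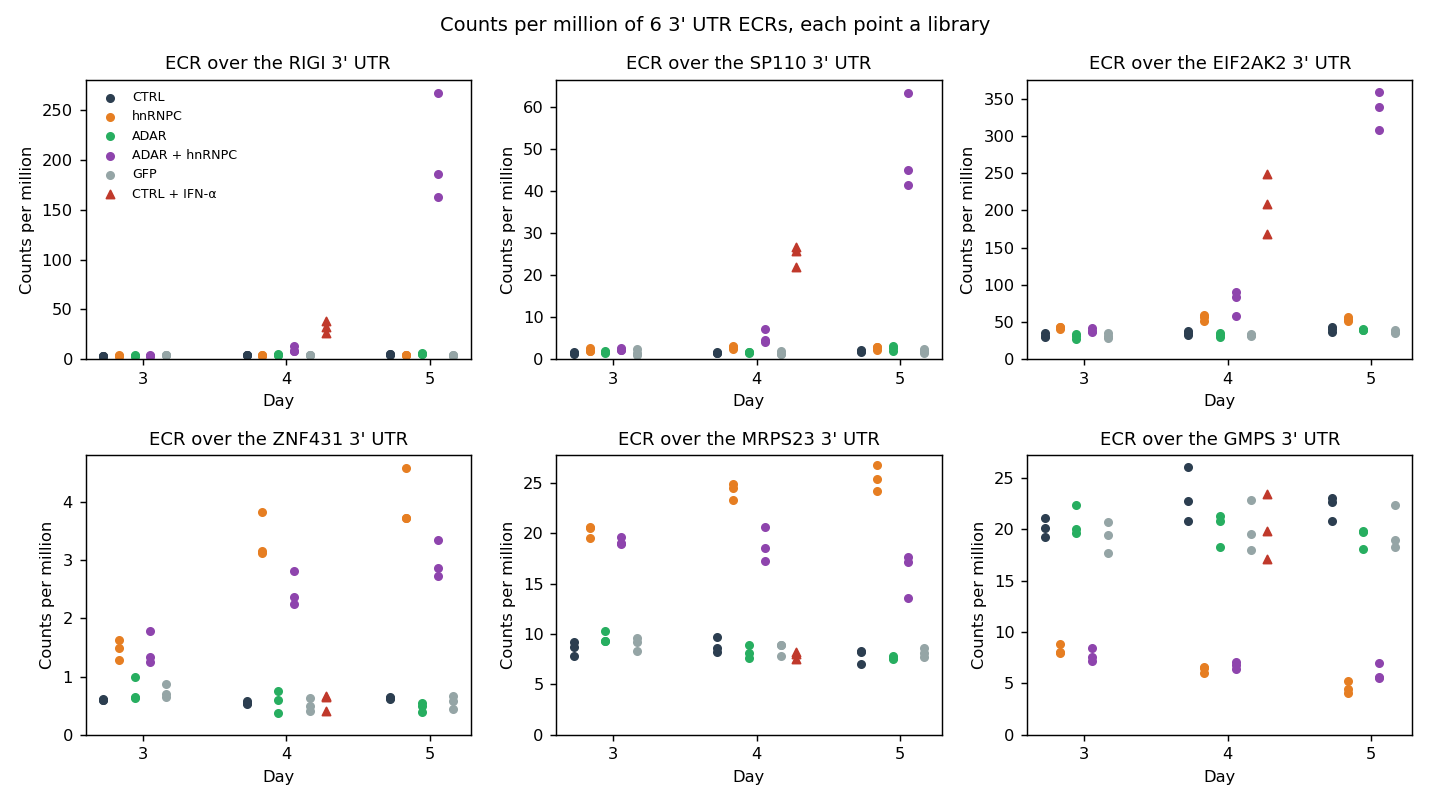
CPM (linear y axis) by day (x axis) of the 3′ UTR ECRs at RIGI, SP110, EIF2AK2, ZNF431, MRPS23, and GMPS in every library of study 1, 1 point per library. RIGI, SP110, and EIF2AK2 are high in ADAR+hnRNPC cells of day 5 and with IFN-α, while MRPS23 is high and GMPS low in both groups with hnRNPC gRNA.

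The other lists held few called regions, beside 4.98% higher and 4.31% lower over all ECRs with hnRNPC gRNA and 6.33% higher and 10.4% lower in ADAR+hnRNPC cells of day 5. Of 9 regions in genes of apoptosis and p53, 0 were called with hnRNPC gRNA and 1, at CASP10 (an initiator caspase), was higher in ADAR+hnRNPC cells of day 5. Of 12 tested regions in genes of the ubiquitin system, RNF213 rose and KLHL23 fell with hnRNPC gRNA, and RNF213 and TRIM56 (an antiviral ubiquitin ligase) rose in ADAR+hnRNPC cells while KLHL23 fell. Of the 19 regions in genes known for edited 3′ UTRs, AHR, APOL1, and EIF2AK2 rose in ADAR+hnRNPC cells of day 5. The lists were called for abundance at edgeR's threshold given above, which no region met in ADAR against CTRL cells.

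Study 2 asked where the transcripts of the regions are found. Of 820 tested 3′ UTR ECRs, 34 had a lower CPM in cytosolic than in total RNA (background 13.1%) and 9 a higher one (0.445%), averaged over the 4 gRNA groups. The median log2 difference was 0.23 in 3′ UTR ECRs and −0.17 in the other ECRs, of which 290 of 1650 (17.6%) were lower and 2 higher. In 3′ UTR ECRs the share called lower was 4.15%. The difference between both sets was not tested. In hnRNPC cells, 107 were higher (7.29%) and 78 lower (21.6%) in the cytosolic than in the nuclear enriched fraction.

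Both ECRs of SPN were among the lower ones. The first (chr16:29675400-29677651) had a lowest, median, and highest level of 148, 242, and 290 CPM in 8 total RNA libraries and 34.5, 50.5, and 61.1 CPM in 8 cytosolic libraries (−2.22 ± 0.08, edgeR adjusted p = 6.44e-14). The second had 123, 209, and 258 CPM against 41.2, 50.8, and 63.6 CPM (−1.90 ± 0.09), and the gene as a whole −2.03. CTSA, the lysosomal cathepsin A (chr20:44523713-44525759), had 15.1, 23.7, and 24.1 against 3.26, 5.59, and 9.18 CPM (−1.99 ± 0.06). ARSA (arylsulfatase A, also lysosomal) and QPCTL (a glutaminyl cyclase of the Golgi) fell by 2.13 and 2.06. That the fractions did not overlap was a condition for naming these regions. Of the 33 lower regions with a tested gene, 29 had a gene that was called lower too.

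The largest log2 difference of cytosolic over total RNA was that of PHACTR4, a regulator of protein phosphatase 1 (chr1:28824317-28827190). It had 6.49, 7.98, and 19.2 CPM in total and 21.6, 23.3, and 31.6 CPM in cytosolic RNA (1.22 ± 0.13, edgeR adjusted p = 1.14e-07). ERCC8 (a DNA repair protein) had 3.19, 3.75, and 4.86 against 6.30, 8.81, and 11.1 CPM (1.15 ± 0.11), and APOOL (a protein of mitochondrial cristae) 16.3, 19.1, and 27.1 against 34.4, 40.2, and 48.8 CPM (1.09 ± 0.09). None of the 9 higher regions had a gene called higher. Their genes had a median log2 difference of 0.81. The ratio to the gene was higher in 6 (0.675%) and lower in 6 (9.46%) of 799 regions.

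The gRNA comparisons of study 2 had 2 replicates per group. In total RNA, hnRNPC gRNA raised 6 regions (1.54%) and lowered 7 (0.729%), and ADAR+hnRNPC against ADAR cells raised 17 (6.6%) and lowered 2 (0.283%). Without CTRL replicate 1 the number lowered by hnRNPC gRNA was 13, and without hnRNPC replicate 2 it was 2. In cytosolic RNA, hnRNPC gRNA raised 4 (1.9%) and lowered 1 (0.243%), and ADAR+hnRNPC against ADAR cells raised 4 (1.62%) and lowered 0 (0.162%), with 174 regions at an unadjusted p of 0.05 or below in edgeR. HNRNPC mRNA in total RNA was 745 ± 233 CPM in CTRL and 463 ± 42.0 CPM in hnRNPC cells. ZNF726 (1.31), ZNF773 (1.22), ZNF431 (1.17), and GMPS (−1.12 on the log2 scale) were among those called in cytosolic RNA.

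Editing over the 3′ UTR ECRs in study 2 was 21.9 and 20.2% in total RNA of CTRL cells and 22.2 and 22.6% in their cytosolic RNA. ADAR cells had 7.20 and 6.49% in total and 6.90 and 6.62% in cytosolic RNA, and ADAR+hnRNPC cells 7.34 and 6.55%, and 7.32 and 6.63%. hnRNPC cells had 21.9 and 21.7% in total, 22.3 and 22.6% in cytosolic, and 20.8 and 22.3% in nuclear enriched RNA. Fractions of the same cells thus lay within 3 points of each other. In the other ECRs the CTRL means were 18.5% ± 1.75 in total and 23.6% ± 0.0342 in cytosolic RNA.

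Per region, ADAR gRNA lowered editing in 462 of 501 regions in total RNA (background 83.0%) and in 483 in cytosolic RNA (91.4%), with no region higher (0.0% and 0.0%). Cytosolic against total RNA differed in 12 of 501 regions, 11 of them higher (9.85%) and 1 lower (0.101%), with a median difference of 0.56 points. Leaving out single libraries gave 4 to 15 higher, with the lowest number without replicate 1 of total or replicate 2 of cytosolic RNA of ADAR cells. Of the other ECRs 87 of 494 were higher, with a median of 3.05 points. In hnRNPC cells 19 of the 501 were more edited in cytosolic than in nuclear enriched RNA (14.9%) and 0 less (0.0%).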

How the data were processed

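The deposited tables hold whole-number read counts per ECR and per gene, and counts of total reads and of reads with G at each editing site, with 48 libraries in study 1 and 18 in study 2. Per the labels and the study's methods, the authors sequenced ribosomal RNA-depleted, strand-specific libraries, aligned them to GRCh37 with STAR 2.5.4a, counted unique reads with featureCounts, called sites with SAILOR, and removed variants of the sequenced clone. Annotated 3′ UTRs were those of basic protein-coding transcripts in GENCODE v44lift37, which is not the release the authors used. Members, gene lists, and the choice of named regions were made with earlier results of these data known.

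A site was retained with at least 10 reads, at least 5% editing in every library of at least 1 group, at least 10% in 2 libraries, and at least 5 such sites at gaps of up to 50 bases. This filter was written after the study's methods, but it did not rebuild the ECR edges exactly, so the sites may differ from those the authors retained, and summed editing depends on the filter. Sites with an empty value in any library of their study were left out of the editing values as whole sites, unless stated. Reads of ECRs were scaled to gene totals with TMM factors and tested with edgeR 4.0.16 (quasi-likelihood, all groups of a study in 1 fit). Regions were tested above an average log2 CPM of 4.5. For this filter alone, CPM was scaled to the ECR total of the library, so regions of low CPM by gene totals could pass. Editing was tested with a quasi-binomial logistic model in R 4.3.3 on reads summed per ECR (at least 50 in every library), and the ratio to the host gene with limma 3.58.1 after adding 0.5 to both counts. DESeq2 1.42.0, limma-voom, and other settings were alternatives. Scripts were tested on simulated data.

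Named regions were the called ones of largest change whose libraries did not overlap between the groups (up to 8 higher and 5 lower per main comparison), those with the largest change in editing or in the ratio to the gene, the 8 with the most reads at sites in CTRL libraries, and those in genes known for edited 3′ UTRs. CASP10, KLHL23, TRIM56, and MRPS21 were named for list counts or after their values were seen. Per the study's methods, replicates came from independent experiments on different days. No replicate pair agreed within counting error (chi-square per ECR of at least 5.97). Reads carried no molecular identifiers, so intervals cover counting error only. Sequences and values of single editing sites are not reported here.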

Additional observations from a re-analysis of the deposited data

Results flagged for a closer look

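The effect of ADAR+hnRNPC gRNA against CTRL cells differed between day 5 and day 3 in the test of the difference itself, a contrast added after seeing the data. In abundance, 22 3′ UTR ECRs had a higher and 47 a lower effect on day 5 (edgeR quasi-likelihood test, Benjamini-Hochberg over all ECRs), and with scaling to ECR totals 35 and 16. The RIGI region had a log2 fold change of 0.13 on day 3 and 5.46 on day 5, and that of SP110 0.63 and 4.70. RNF213 went from 0.36 to 4.11, GBP4 from 0.09 to 3.16, and SIGLEC11 from 0.34 to 3.17, while GOLGA8N went from −0.25 to −1.80.

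In editing, 36 regions had a higher effect on day 5 than on day 3 (quasi-binomial model) and 0 a lower one. In HYCC2 the difference from CTRL cells was −13.1 percentage points on day 3 and 0.85 points on day 5, and in STK4, a kinase of the Hippo pathway, −8.97 and 1.13 points. CWF19L1 stayed lower than CTRL cells on both days, by −34.2 and −22.7 points. Groups of 2 or 3 libraries are too small for a check of single libraries that stand apart.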

How the results depend on the processing

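No result reversed, and no low-count filter or a pseudocount of 2 moved any count by over 1.5 times. Counts below are higher/lower 3′ UTR ECRs and are given without the share over all ECRs. The cause of each move was not tested unless the setting uses fewer regions or sites. DESeq2 gave 1 lower for ADAR+hnRNPC against ADAR in total RNA, and limma-voom 2 lower for hnRNPC in total RNA. With ECR totals, hnRNPC of day 3 gave 9 and 10, ADAR+hnRNPC of day 5 43 lower, and day 5 minus day 3 35 and 16. Without TMM, ADAR+hnRNPC gave 9 lower on day 4 and 56 on day 5, day 5 minus day 3 31 lower, cytosolic against total 3 higher, hnRNPC in total RNA 4 lower, and ADAR+hnRNPC against ADAR in total RNA 33 and 0.

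With only the 424 regions holding retained sites inside a 3′ UTR on its strand, abundance calls were 7 and 1, 8 and 6, and 7 and 19 for hnRNPC on days 3 to 5, 4 and 4, 13 and 7, and 20 and 45 for ADAR+hnRNPC, 20 and 22 against ADAR on day 5, 24 lower for day 5 minus day 3, 5 and 15 for cytosolic against total, 3 and 3 for hnRNPC in total RNA, and 8 and 1 for ADAR+hnRNPC against ADAR in total RNA. The ratio to the gene gave 6 and 0, 5 and 2, and 6 higher for hnRNPC, 3 and 6 for ADAR+hnRNPC of day 5, and 3 and 1 for cytosolic against total, and editing 1 higher in cytosolic RNA.

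With all deposited sites, editing was lower in 62, 64, and 62 regions for ADAR, in 50 and 46 for ADAR+hnRNPC, with 0 and 13 on day 5, 5 higher than ADAR, and 5 for day 5 minus day 3. hnRNPC gave 4 on day 4 and 3 and 1 on day 5, and cytosolic RNA 5 and 0. Summed editing was 4.73% in CTRL of day 5, with differences of −2.94 (ADAR), −1.63 (ADAR+hnRNPC), 5.30 (IFN-α), and −6.03 points (ADAR, study 2). With at least 200 reads, the calls were 197, 197, and 199 for ADAR, 183 and 178 for ADAR+hnRNPC, 1 and 87 on day 5, 39 against ADAR, 212 for IFN-α, 18 for day 5 minus day 3, 8 for hnRNPC on day 4, 7 and 1 on day 5, 300 and 304 for ADAR in study 2, and 3 and 0 in cytosolic RNA. Sites chosen in GFP libraries, a setting added after seeing the data, gave 1, 9, and 11 higher and 1 lower for hnRNPC, 1 higher for ADAR on day 4, 1 higher for ADAR+hnRNPC on day 5, 141 against ADAR, and 3 and 0 in cytosolic RNA. Summed editing was then 20.7%, with −12.1, −7.11, and −17.7 points. The limma fit on the empirical logit gave 8 for hnRNPC on day 4, 9 and 1 on day 5, 1 higher for ADAR in total RNA, and 2 lower in cytosolic RNA. Empty values as 0 gave 1 lower for IFN-α, 14.9% in CTRL of day 5, and −8.77 points for ADAR. That CTRL value was 14.4% with equal weight per region and 13.2% for sites in the UTR strand. Inverted repeats covered 65.1% of regions and 89.7% of sites with arms of 150 bases, and 8.57 and 23.3% at 85% identity.

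Leaving out single libraries gave, for editing, 0 to 3 higher for hnRNPC on day 3 (0 without CTRL replicate 1 or 2), 9 to 19 higher and 0 to 1 lower on day 4, 10 to 25 higher and 0 to 3 lower on day 5, 1 to 3 higher for ADAR+hnRNPC on day 5, 22 to 54 for day 5 minus day 3 (22 without ADAR+hnRNPC replicate 2 of day 3 or replicate 3 of day 5), 0 to 1 lower for GFP on day 5, and 4 to 15 higher and 0 to 2 lower in cytosolic RNA. Abundance gave 0 to 1 higher for GFP on day 5, 2 to 13 lower for hnRNPC and 0 to 4 lower for ADAR+hnRNPC against ADAR in total RNA, and the ratio 1 to 2 lower for hnRNPC on day 3. In study 2 a lone library is assumed to vary like the other groups.

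No source ties a replicate number to a shared day, and not every same-numbered pair correlated: 220 of 360 pairs in study 1 (median correlation of deviations 0.17, −0.09 for other numbers) and 28 of 72 in study 2 were over 0.1, so the block was kept as an alternative. With the replicate block, hnRNPC of day 5 gave 18 and 42 and ADAR+hnRNPC 40 and 90 in abundance, and no count of calls moved by over 1.5 times. Of the named regions, MFSD2A (−3.98 points) and MPV17 (−4.78 points) fell under the threshold with all sites, and APOOL (0.95) and HOOK3 without TMM.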
